A study of Bos taurus with 30 samples.

Results

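The paracrine growth factors and receptors described here are 10 genes that form 3 ligand and receptor systems between the epithelium and the stroma of the bovine endometrium. They were the fibroblast growth factors FGF7 and FGF10 with the receptors FGFR1 and FGFR2, hepatocyte growth factor HGF with its receptor MET, and the ligands AREG, EREG and HBEGF with their receptor EGFR. The members were chosen by gene symbol, and all 10 of them were found among the 27607 genes of the count tables. In the endometrium, growth factors of this kind are secreted or shed by one cell layer and act on receptors in the same or the neighbouring layer. FGF7, FGF10 and HGF are known as products of stromal cells that act on epithelial receptors, whereas amphiregulin (AREG), epiregulin (EREG) and heparin-binding EGF-like growth factor (HBEGF) are made as membrane proteins and released by cleavage. All of these receptors are tyrosine kinases that feed into the ERK pathway.

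RNA was sequenced from endometrial epithelial and stromal cells of nonpregnant cows that had been kept under flow in a microfluidic device, with epithelial cells in the upper chamber and stromal cells in the lower chamber, on either side of a porous membrane. In the first experiment the medium held 5 or 50 mM glucose. In the second it held vehicle, 1 ng/mL insulin or 10 ng/mL insulin. Each cell type and condition had 3 replicates, which gave 10 groups and 30 libraries. The vehicle of insulin was acetic acid in phosphate-buffered saline, and the glucose of the insulin experiment was 5 mM. No group was genetically modified. The cells were isolated from uteri and cultured, so the libraries describe cells in the device and not the intact tissue, and the cell type of a library is that of its chamber.

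Each library held 13493503 to 16647701 counted reads in the glucose experiment and 8826470 to 13214728 in the insulin experiment. Levels are given as CPM, the count of a gene scaled to the total of its library. A count of 0 allows up to 3 counts, or 0.18 to 0.222 CPM in the glucose and 0.227 to 0.34 CPM in the insulin libraries, for counting error only. CPM were compared within a gene and not between genes, since gene lengths were not used here. The labels of the cell types were checked with marker genes. The sum of 19 epithelial markers was 8048 to 15578 CPM in the 15 epithelial libraries and 2.10 to 5556 CPM in the 15 stromal libraries. The highest stromal value, 5556 CPM, was in replicate 3 at 50 mM glucose, and the stromal libraries at 5 mM glucose reached 616 CPM and those of the insulin experiment 327 CPM. The same library had the lowest sum of 20 stromal markers among the stromal libraries (43738 CPM, against up to 103650 CPM), while the epithelial libraries held 17748 to 35468 CPM of these. The sum of 6 smooth muscle markers was 891 to 4502 CPM in the stromal and 12.6 to 384 CPM in the epithelial libraries. For 7 endothelial markers the sum was 3.36 to 28.2 CPM in the stromal and 25.9 to 108 CPM in the epithelial libraries. The epithelial library of replicate 2 at 5 mM glucose had the highest epithelial sum. Values without these libraries or their replicate are given where a result rests on them. In bulk RNA, fewer cells of one type and less RNA per cell cannot be told apart.

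Most of the members were divided between the cell types. FGF7, FGF10, FGFR1 and HGF were higher in stromal cells in all 5 conditions, and MET was higher in epithelial cells in all 5. AREG and HBEGF were higher in epithelial cells in the 3 insulin conditions and at 5 mM glucose, and EGFR in the 3 insulin conditions, where EREG was higher in stromal cells. FGFR2 was called in none of the 5 conditions. A member was called when edgeR's quasi-likelihood test gave an adjusted p under 0.05, with Benjamini-Hochberg adjustment over all genes tested, and the log2 fold change was beyond 0.1. In the vehicle group 9 of 10 members were called, 4 on the epithelial and 5 on the stromal side, where 55.9% of all protein-coding genes tested were called, 28.2% on the epithelial and 27.8% on the stromal side. The counts were also 9 of 10, with 4 and 5 on the same sides, with 1 ng/mL insulin (59.4% of all genes, 29.9% epithelial and 29.5% stromal) and with 10 ng/mL insulin (54.9% of all genes, 27.3% epithelial and 27.6% stromal). At 5 mM glucose 7 of 10 were called (21.5% of all genes), 3 on the epithelial side (10.8% of all genes) and 4 on the stromal side (10.7%). At 50 mM glucose 5 of 10 were called (17.6% of all genes), 1 on the epithelial side (6.57%) and 4 on the stromal side (11.0%). This last count depended on the replicates, with 1 member called without the replicate number as a block (FGF7, where 7.95% of all genes were called), 0 without replicate 1 (0% of all genes) and 7 without replicate 3 (28.4%).

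**Figure D1:**
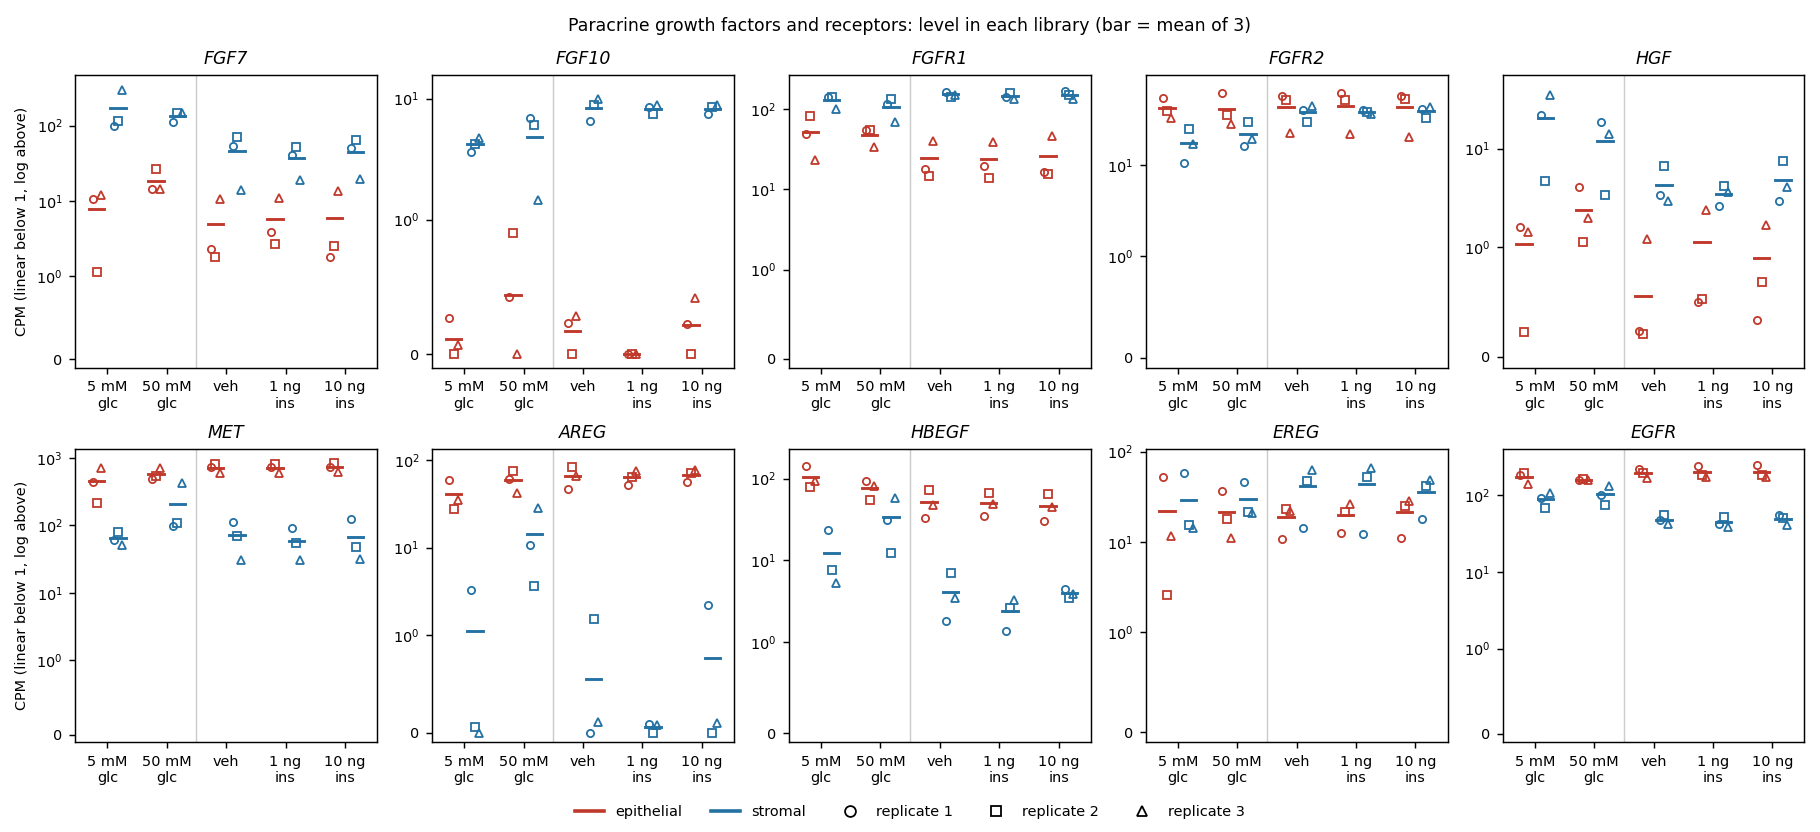
Level of each member in CPM (vertical axis, linear below 1 and logarithmic above) in the 30 libraries, by condition on the horizontal axis (glc, glucose in mM; veh, vehicle; ins, insulin in ng/mL), with 1 point per library and a bar at the mean of the 3 replicates. The epithelial points of FGF10 lie below 1 CPM and all stromal points above it, while the points of FGFR2 and EREG overlap between the cell types.

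The libraries were also set side by side without a test. In the insulin experiment, 8 of 10 members had CPM that did not overlap between the 9 epithelial and the 9 stromal libraries (51.8% of all genes), and the other 2 were FGFR2 and EREG. In the glucose experiment only FGF7, FGF10 and EGFR, 3 of 10, did not overlap, which was near the share of all genes (23.6%). Without the stromal library of replicate 3 at 50 mM, 7 of 10 did not overlap (34.8% of all genes), and without the epithelial library of replicate 2 at 5 mM the count was 6 (29.5%). Over both experiments FGF10 and EGFR did not overlap, 2 of 10 (13.9% of all genes), and 5 of 10 did not without that stromal library (22.4%). These alternatives were chosen after the data had been seen.

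FGF10 (ENSBTAG00000051910), a ligand of the epithelial form of FGFR2, was near the limit of detection in epithelial cells. With vehicle, the 3 epithelial replicates held 0.235, 0 and 0.281 CPM and the stromal replicates 6.47, 8.78 and 9.86 CPM. At 1 ng/mL insulin all 3 epithelial libraries held 0 counts, and the stromal libraries held 8.52, 7.46 and 8.8 CPM. At 10 ng/mL the epithelial values were 0.223, 0 and 0.420 CPM and the stromal values 7.42, 8.51 and 8.84 CPM. The stromal libraries of the insulin experiment were thus all high and close to each other, with no overlap. At 5 mM glucose, epithelial cells had 0.266, 0 and 0.0685 CPM and stromal cells 3.65, 4.21 and 4.70 CPM. At 50 mM they had 0.428, 0.901 and 0 CPM against 6.89, 6.0 and 1.45 CPM. The lowest of the 15 stromal libraries was again replicate 3 at 50 mM glucose. Since the epithelial counts were so low, the difference is given as a ratio of the summed counts, with an exact 95% interval that covers counting error only. FGF10 was 45.6-fold higher in stromal cells with vehicle (20.7 to 125), 37.3-fold at 10 ng/mL insulin (16.9 to 103), 36.2-fold at 5 mM glucose (15.3 to 113) and 10.4-fold at 50 mM glucose (6.71 to 17.0). At 1 ng/mL insulin it was at least 28.8-fold higher, against a floor of 3 counts in each epithelial library. The adjusted p-values of edgeR's quasi-likelihood test were 0.0021, 0.0012 and 0.0027 for vehicle, 1 and 10 ng/mL insulin, and 0.011 and 0.016 for 5 and 50 mM glucose. The call at 50 mM was lost without replicate 1 (adjusted p = 0.196 in edgeR) or without the replicate block (0.091).

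FGF7 (ENSBTAG00000051898), keratinocyte growth factor, acts on the same receptor form. With vehicle it had 2.27, 1.76 and 10.7 CPM in epithelial cells and 53.3, 69.5 and 14.1 CPM in stromal cells. With 1 ng/mL insulin it had 3.88, 2.63 and 10.8 CPM against 40.5, 51.4 and 18.7 CPM, and with 10 ng/mL it had 1.78, 2.49 and 13.5 CPM against 49.9, 65.1 and 19.4 CPM. In each of these 3 conditions replicate 3 was the highest in epithelial and the lowest in stromal cells, so that its pair differed least. The log2 fold change of epithelial over stromal cells was -3.34 (SE 1.05, adjusted p = 0.049 from edgeR) with vehicle, -2.82 (SE 0.658, adjusted p = 0.014) with 1 ng/mL and -3.23 (SE 0.983, adjusted p = 0.045) with 10 ng/mL insulin. FGF7 was lower in the epithelial library in 3 of 3 pairs each time, but the call was lost with vehicle without replicate 1 (adjusted p = 0.219) or 2 (0.109), with 1 ng/mL without replicate 1 (0.098), and with 10 ng/mL without replicate 1 (0.148) or 2 (0.141). In the glucose experiment the stromal levels were higher. At 5 mM glucose FGF7 had 10.5, 1.11 and 11.8 CPM in epithelial and 98.1, 116 and 298 CPM in stromal cells, and at 50 mM it had 14.1, 26.2 and 14.3 CPM against 112, 146 and 149 CPM. No epithelial library reached the lowest stromal one. The fitted log2 difference was -4.99 (SE 0.727, adjusted p = 0.0085) at 5 mM and -3.10 (SE 0.231, adjusted p = 0.0020) at 50 mM in edgeR. Without replicate 1 the latter was -3.01 with an adjusted p of 0.053.

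FGFR1 (ENSBTAG00000015457), the receptor that many mesenchymal cells use, was higher in stromal cells, as FGF7 and FGF10 were, and was also detected in all epithelial libraries. With vehicle it had 18.1, 14.5 and 40.5 CPM in epithelial cells and 164, 143 and 150 CPM in stromal cells. The values were 19.8, 13.8 and 38.4 against 143, 160 and 132 CPM with 1 ng/mL insulin, and 16.3, 15.4 and 46.4 against 168, 148 and 133 CPM with 10 ng/mL. All epithelial libraries of this experiment were below all stromal ones, with replicate 3 the highest of the epithelial libraries. The log2 fold change was -2.86 (SE 0.298, adjusted p = 0.0024 from edgeR) with vehicle and -2.81 at both doses (adjusted p = 0.0012 at 1 ng/mL and 0.0054 at 10 ng/mL). The cell types were closer in the glucose experiment, with 49.4, 82.9 and 23.0 CPM against 142, 141 and 100.2 CPM at 5 mM, and 54.1, 54.5 and 34.1 CPM against 117, 134 and 69.6 CPM at 50 mM. Epithelial cells of replicate 2 at 5 mM were above stromal cells of replicate 3 at 50 mM. The fold change was -1.69 (SE 0.402, adjusted p = 0.032) at 5 mM and -1.30 (SE 0.153, adjusted p = 0.0065) at 50 mM in edgeR. The call at 5 mM was lost without replicate 3 (adjusted p = 0.248) or without the replicate block (0.082), and the call at 50 mM without replicate 1 (0.101) or without the block (0.073).

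FGFR2 (ENSBTAG00000014064) binds FGF7 and FGF10 in its epithelial splice form and other FGFs in its mesenchymal form, and gene counts do not separate these forms. With vehicle it had 57.5, 51.8 and 22.6 CPM in epithelial and 40.1, 30.1 and 44.9 CPM in stromal cells. With 1 ng/mL insulin it had 62.1, 51.6 and 22.3 CPM against 40.2, 38.4 and 36.2 CPM, and with 10 ng/mL it had 57.5, 53.0 and 20.5 CPM against 41.2, 32.9 and 44.3 CPM. The epithelial libraries of replicates 1 and 2 were above all 9 stromal libraries, and those of replicate 3 were below all of them. Replicate number within a cell type accounted for 95.6% of the variance of FGFR2 on the log scale over these 18 libraries, and cell type for 0.786%. The fitted log2 difference was 0.05 (SE 0.411, adjusted p = 0.924 from edgeR) with vehicle, 0.03 (SE 0.287, adjusted p = 0.938) with 1 ng/mL and -0.06 (SE 0.417, adjusted p = 0.917) with 10 ng/mL. Without replicate 3 it was 0.64 with vehicle, and called (adjusted p = 0.027), and 0.52 with 10 ng/mL (adjusted p = 0.054). At 5 mM glucose the values were 55.5, 39.6 and 32.8 CPM in epithelial and 10.6, 25.4 and 17.3 CPM in stromal cells, with no overlap. At 50 mM they were 61.9, 35.3 and 28.5 CPM against 16.4, 30.3 and 19.4 CPM, with the epithelial library of replicate 3 below the stromal library of replicate 2. FGFR2 was higher in the epithelial library in 3 of 3 pairs at both glucose concentrations, with log2 fold changes of 1.09 (SE 0.432, adjusted p = 0.145) and 0.74 (SE 0.320, adjusted p = 0.162) that missed the threshold of edgeR's test.

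**Figure D2:**
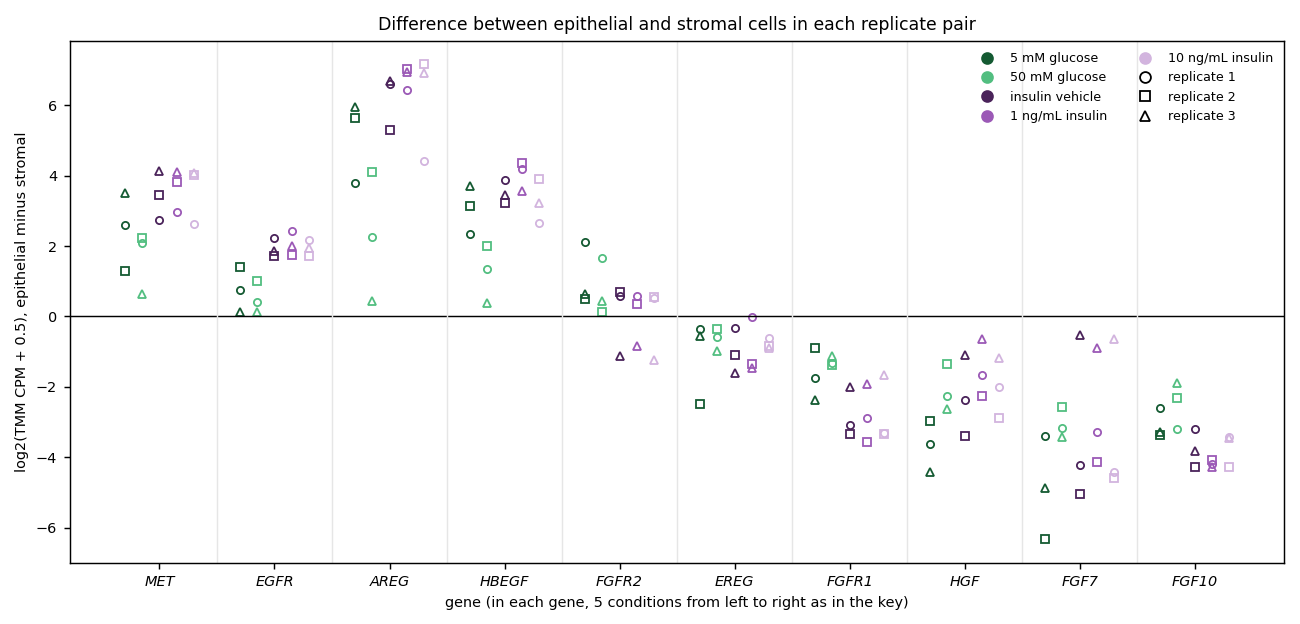
Difference between the epithelial and the stromal library of the same replicate number on the scale log2(TMM CPM + 0.5), on the vertical axis, for each member on the horizontal axis, with 1 point per pair, coloured by condition. MET, EGFR, AREG and HBEGF lie above 0 in all 15 pairs, EREG, FGFR1, HGF, FGF7 and FGF10 below 0 in all 15, and FGFR2 below 0 in replicate 3 of the insulin experiment.

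HGF (ENSBTAG00000017664) is secreted as an inactive precursor that has to be cleaved before it can activate MET. Its level was low in epithelial cells, with 0.235, 0.207 and 1.22 CPM with vehicle, 0.497, 0.527 and 2.39 CPM with 1 ng/mL and 0.334, 0.680 and 1.68 CPM with 10 ng/mL insulin. The stromal libraries had 3.41, 6.61 and 2.93 CPM, 2.59, 4.15 and 3.63 CPM, and 2.95, 7.54 and 4.03 CPM in the same order. The stromal values were above all epithelial ones of the experiment, though the highest epithelial value (2.39 CPM) was close to the lowest stromal one (2.59 CPM). The log2 fold change of epithelial over stromal cells was -3.05 (SE 0.706, adjusted p = 0.020 from edgeR) with vehicle, -1.88 (SE 0.505, adjusted p = 0.023) with 1 ng/mL and -2.56 (SE 0.516, adjusted p = 0.014) with 10 ng/mL. The call was lost without replicate 1 with vehicle (adjusted p = 0.099) and 1 ng/mL (0.107), and without replicate 2 with 10 ng/mL (0.055). At 5 mM glucose HGF had 1.6, 0.222 and 1.44 CPM in epithelial and 21.7, 4.65 and 35.1 CPM in stromal cells. At 50 mM it had 4.10, 1.14 and 1.97 CPM against 18.7, 3.41 and 14.0 CPM. Replicate 2 was the lowest in both cell types at both concentrations, so that the stromal library of replicate 2 at 50 mM was below the epithelial library of replicate 1. Within pairs HGF was higher in stromal cells in 3 of 3 at each concentration, with log2 fold changes of -4.45 (SE 0.443, adjusted p = 0.0054) at 5 mM and -2.39 (SE 0.307, adjusted p = 0.0086) at 50 mM in edgeR. The second call was lost without replicate 1 (adjusted p = 0.133) or without the replicate block (0.089).

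MET (ENSBTAG00000006161), the HGF receptor, was higher in epithelial cells and was also detected in all stromal libraries. The 9 epithelial libraries of the insulin experiment had 737, 817 and 609 CPM with vehicle, 751, 829 and 597 CPM with 1 ng/mL and 743, 849 and 612 CPM with 10 ng/mL. The stromal libraries had 114, 70.5 and 30.8 CPM, 92.2, 55.5 and 31.2 CPM, and 123, 47.6 and 32 CPM. Each replicate number kept its place over the 3 conditions in both cell types, with replicate 1 the highest in stromal cells. The fitted log2 difference was 3.43 (SE 0.307), 3.62 (SE 0.256) and 3.57 (SE 0.369) in the same order, with adjusted p-values of 0.0017, 0.00025 and 0.0025 in edgeR. In the glucose experiment MET had 436, 218 and 725 CPM in epithelial and 60.4, 81.4 and 52.1 CPM in stromal cells at 5 mM, and 483, 547 and 721 CPM against 97.0, 107 and 428 CPM at 50 mM. The stromal library of replicate 3 at 50 mM, the one with 5556 CPM of epithelial markers, was several times above the other stromal libraries and overlapped the epithelial range. The fold change was 2.48 (SE 0.518, adjusted p = 0.022 from edgeR) at 5 mM and 1.66 (SE 0.355, adjusted p = 0.036) at 50 mM. The first call was lost without replicate 3 (adjusted p = 0.052), and the second without replicate 1 (0.265) or without the replicate block (0.148).

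AREG (ENSBTAG00000018134) was at or near 0 in most stromal libraries of the insulin experiment. Over the 9 epithelial libraries of the insulin experiment it had 47.0, 83.2 and 66.5 CPM with vehicle, 51.5, 64.5 and 75.2 CPM with 1 ng/mL and 55.8, 71.7 and 76.1 CPM with 10 ng/mL insulin. The stromal libraries had 0, 1.54 and 0.108 CPM, 0.0926, 0 and 0.0807 CPM, and 2.19, 0 and 0.0961 CPM. The stromal libraries above 1 CPM, replicate 2 with vehicle and replicate 1 with 10 ng/mL, were also the ones with the highest epithelial marker sums of the experiment (327 and 301 CPM, against up to 30.3 CPM in the other 7). The ratio of the summed counts of epithelial to stromal cells was 113 with vehicle (exact 95% interval 71.0 to 190.2) and 79.4 with 10 ng/mL (55.4 to 118). With 1 ng/mL, where the stromal libraries held 2 counts in all, it was 1115 (308 to 9217). The intervals of these ratios, and of those in the glucose experiment below, cover counting error only and not the spread between replicates. Each of the 3 differences was called in edgeR (adjusted p = 0.0019, 3.2e-05 and 0.0047 for vehicle, 1 and 10 ng/mL). In the glucose experiment AREG had 59.8, 27.3 and 35.1 CPM in epithelial and 3.26, 0.0629 and 0 CPM in stromal cells at 5 mM, and 61.1, 75.4 and 41.6 CPM against 10.8, 3.62 and 28.4 CPM at 50 mM. At 50 mM all stromal libraries were above the highest of the stromal libraries at 5 mM, and replicate 3 reached the epithelial range. AREG was called at 5 mM (adjusted p = 0.017 from edgeR), with a ratio of 38.6 (29.2 to 52). At 50 mM the ratio was 4.27 (3.91 to 4.66), the log2 fold change was 2.25 (SE 0.741) and the adjusted p was 0.093. Without replicate 3 it was 3.19 with an adjusted p of 0.016.

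HBEGF (ENSBTAG00000021766) followed AREG in its division between the cell types. In the insulin experiment it had 32.6, 73.5 and 47.6 CPM in epithelial cells with vehicle, 35.2, 66.1 and 48.9 CPM with 1 ng/mL and 30.1, 64.4 and 45.5 CPM with 10 ng/mL. In stromal cells it had 1.84, 7.06 and 3.47 CPM, 1.39, 2.63 and 3.31 CPM, and 4.46, 3.51 and 3.94 CPM. No stromal library came near the lowest epithelial one. The log2 fold change was 3.63 (SE 0.209), 4.24 (SE 0.220) and 3.37 (SE 0.280), with adjusted p-values of 0.00095, 0.00010 and 0.0018 in edgeR. At 5 mM glucose HBEGF had 143, 77.8 and 92.2 CPM against 23.4, 7.73 and 5.37 CPM, a log2 fold change of 3.12 (SE 0.418, adjusted p = 0.0071 in edgeR). At 50 mM it had 93.4, 54.7 and 81.7 CPM against 31.4, 12.3 and 57.9 CPM. The stromal library of replicate 3 was above the epithelial library of replicate 2, and the fold change of 1.24 (SE 0.327, adjusted p = 0.056) missed the threshold of edgeR's test. Without replicate 3 it was 1.67 with an adjusted p of 0.011.

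EREG (ENSBTAG00000010273), which binds EGFR and ERBB4, was the EGF-like ligand with the opposite direction. With vehicle it had 10.7, 23.0 and 22.0 CPM in epithelial and 14.2, 46.8 and 62.0 CPM in stromal cells. With 1 ng/mL insulin it had 12.6, 21.2 and 26.2 CPM against 12.3, 52.1 and 66.3 CPM, and with 10 ng/mL it had 11.1, 25.2 and 28.2 CPM against 17.9, 41.7 and 47.9 CPM. Replicate 1 was the lowest in both cell types in each condition, and it was the replicate in which the cell types were closest. With 1 ng/mL insulin its CPM was slightly higher in the epithelial library (12.6 against 12.3). Differences within pairs are on the TMM scale and not on this one. The share of the variance on the log scale that lay between replicate numbers within a cell type was 70.8%, against 25.7% between the cell types. The fitted log2 difference of epithelial over stromal cells was -1.08 (SE 0.273, adjusted p = 0.026) with vehicle, -1.04 (SE 0.300, adjusted p = 0.029) with 1 ng/mL and -0.84 (SE 0.116, adjusted p = 0.0049) with 10 ng/mL in edgeR with the replicate number as a block. Without the replicate block the call was lost in all 3 conditions (adjusted p = 0.096, 0.098 and 0.158). It was also lost with vehicle without replicate 2 or 3 (adjusted p = 0.068 and 0.077), and with 1 ng/mL without replicate 3 (0.116). In the glucose experiment the order of the replicates was another. Replicate 1 was the highest, with 52.4, 2.59 and 11.5 CPM in epithelial and 57.5, 15.2 and 14.2 CPM in stromal cells at 5 mM, and 36.1, 17.8 and 11.1 CPM against 46.4, 21.5 and 21.1 CPM at 50 mM. Here EREG was lower in the epithelial library in 3 of 3 pairs at both concentrations, with log2 fold changes of -1.15 (SE 0.536, adjusted p = 0.203) and -0.67 (SE 0.185, adjusted p = 0.063) in edgeR, which were not called. The value at 5 mM was -0.47 without replicate 2. The replicate numbers of the 2 experiments are not known to stand for the same animals.

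EGFR (ENSBTAG00000011628), the receptor of all 3 of these ligands, was detected with at least 383 reads in every library of both cell types. In the insulin experiment it had 216, 191 and 167 CPM in epithelial cells with vehicle, 240 (replicate 1), 184 and 173 CPM with 1 ng/mL and 247, 182 and 174 CPM with 10 ng/mL. The stromal cells had 47.7, 54.4 and 41.5 CPM, 42.3, 51.3 and 38.3 CPM, and 55.8, 50.6 and 40.3 CPM. All epithelial libraries were above all stromal ones, with replicate 1 the highest epithelial library in each condition. The log2 fold change was 1.92 (SE 0.142), 2.06 (SE 0.156) and 1.93 (SE 0.132), with adjusted p-values of 0.0013, 0.00030 and 0.0014 in edgeR. In the glucose experiment EGFR had 182, 196 and 141 CPM in epithelial and 91.5, 67.5 and 106 CPM in stromal cells at 5 mM, and 155, 164 and 155 CPM against 99.9, 75.3 and 131 CPM at 50 mM. The groups did not overlap, but the stromal libraries were nearer to the epithelial ones than in the insulin experiment. The fold changes of 0.76 (SE 0.370, adjusted p = 0.222) at 5 mM and 0.52 (SE 0.216, adjusted p = 0.153) at 50 mM were not called in edgeR, although EGFR was higher in the epithelial library in 3 of 3 pairs at each. At 5 mM it was called with all 12 libraries of the experiment in one fit (0.78, adjusted p = 0.044).

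Set beside each other by cell type, FGF7, FGF10 and HGF were called higher in stromal cells and MET in epithelial cells in all 5 conditions. For HGF and MET the ligand and its receptor were thus called in opposite cell types in each. For FGF7 and FGF10 the ligands were called in stromal cells together with FGFR1, while FGFR2, the receptor of both in its epithelial form, was not called in either direction. AREG and HBEGF were called higher in the same cells as EGFR in the 3 insulin conditions, and EREG in the opposite cells. Levels of RNA do not give the amount of secreted protein or of receptor at the cell surface, which were not used here.

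In 14 of the 15 stromal libraries the levels of AREG, HBEGF and MET were below those of replicate 3 at 50 mM glucose. That library had the highest value of the 15 for each of these 3 members (28.4, 57.9 and 428 CPM) and for the summed epithelial markers (5556 CPM). The other stromal libraries at 50 mM held 1430 CPM (replicate 1) and 1006 CPM (replicate 2) of the epithelial markers, and the 3 at 5 mM held 616, 327 and 78.6 CPM. None of the 19 markers was at 0 in any of the 3 libraries at 50 mM, against 0, 8 and 2 of them at 5 mM. The part of these markers in the levels of the 3 members was not tested.

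**Figure D3:**
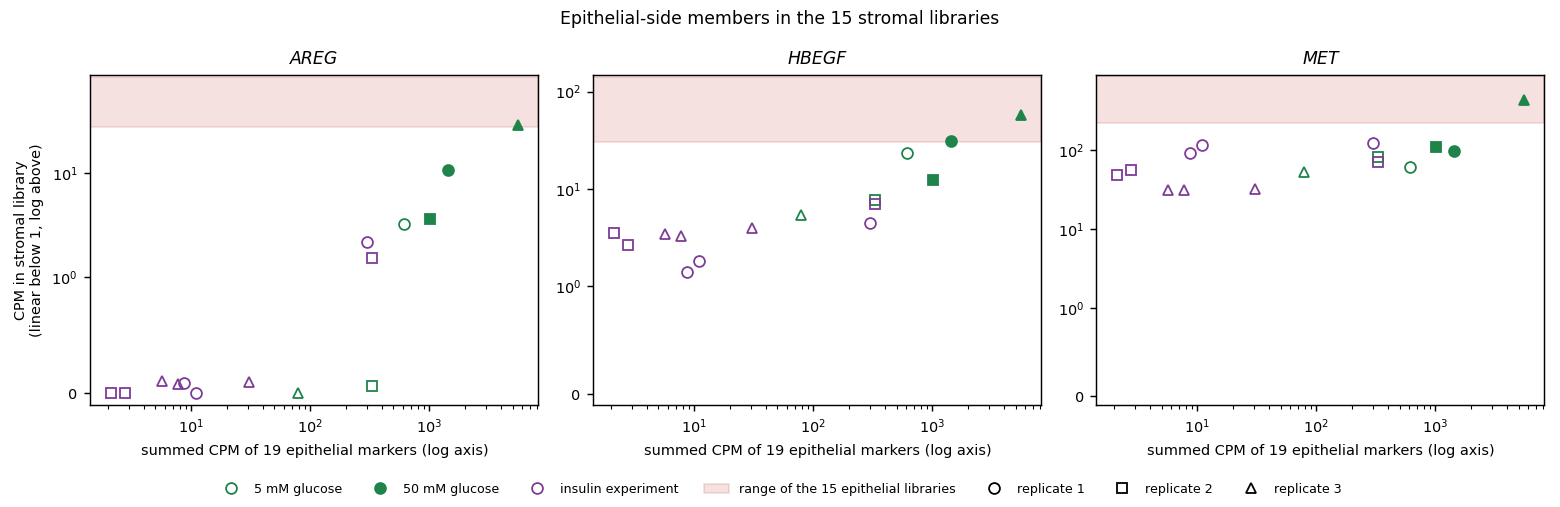
Level of AREG, HBEGF and MET in CPM (vertical axes, linear below 1 and logarithmic above) against the summed CPM of 19 epithelial markers (horizontal axes, logarithmic) in the 15 stromal libraries, with the range of the 15 epithelial libraries shaded. Replicate 3 at 50 mM glucose, with 5556 CPM of markers, is the highest in each panel and lies within the shaded range.

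The effect of 50 against 5 mM glucose was compared within each cell type, with the replicate number as a block. In epithelial cells FGF10 was removed by the filter on low counts, and of the 9 members tested 0 were called in edgeR, as was 0% of all genes. One of them had an unadjusted p under 0.05, and DESeq2 also called 0 and had 1. In stromal cells all 10 were tested and 0 were called in edgeR, again with 0% of all genes. An unadjusted p under 0.05 was found for 1 member in edgeR and 4 in DESeq2, which also called 0. The share of all genes that DESeq2 called in the treatment comparisons is not given here. The paper, which used DESeq2 with its own cut-offs, reports protein-coding genes altered by 50 mM glucose in both cell types, more of them in stromal cells. The cause of the different calls was not tested. Counts of members at an unadjusted p under 0.05, here and below, were not set against the share of all genes at that limit. They are given as a description only.

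HGF was the epithelial member with an unadjusted p under 0.05. It was higher at 50 mM in 3 of 3 epithelial pairs, with a log2 fold change of 1.25 (SE 0.468, adjusted p = 0.804 in edgeR). The values at 50 mM, 4.10, 1.14 and 1.97 CPM, overlapped those at 5 mM, 1.6, 0.222 and 1.44 CPM. Markers of other cells moved in the same epithelial pairs. The sum of 6 smooth muscle markers, none of them at 0, was 146, 384 and 58.6 CPM at 50 mM against 74.2, 39.4 and 38.5 CPM at 5 mM, higher in 3 of 3. The summed 20 stromal markers were 17748 to 28799 CPM at 5 mM and 21436 to 29384 CPM at 50 mM, with none at 0, and their median was 163, 12.3 and 32.2 CPM at 5 mM and 158, 83.0 and 39.1 CPM at 50 mM. The part of these cells in the epithelial levels of HGF was not tested. In stromal cells HGF was lower at 50 mM in 3 of 3 pairs, with -0.74 (SE 0.296, adjusted p = 0.696), and the value was -0.31 without replicate 3. The difference of the effect between the cell types was 1.95 (SE 0.553, adjusted p = 0.631 in edgeR) and was not called.

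AREG was the stromal member with an unadjusted p under 0.05. Its stromal log2 fold change was 4.27 (SE 1.47, adjusted p = 0.696 in edgeR), higher at 50 mM in 3 of 3 pairs, with a range of 2.36 to 8.43 when 1 replicate was left out at a time. The 5 mM group held 3.26, 0.0629 and 0 CPM, so that 2 of its 3 libraries were under the limit that a count of 0 allows, and the size of the fold change depends on them. In epithelial cells AREG was also higher in 3 of 3 pairs, by 0.58 (SE 0.328, adjusted p = 0.804), with 0.17 when replicate 2 was left out. The effect differed by -3.62 (SE 1.39, adjusted p = 0.649 in edgeR) between epithelial and stromal cells, and by -7.55 with an adjusted p of 0.0048 without replicate 1.

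For HBEGF the pairs of the 2 cell types differed in direction. It was lower at 50 mM in 3 of 3 epithelial pairs (-0.43, SE 0.219, adjusted p = 0.804 in edgeR) and higher in 3 of 3 stromal pairs (1.38, SE 0.682, adjusted p = 0.696). The stromal value was 0.51 when replicate 3 was left out. The effect differed between epithelial and stromal cells by -1.82 (SE 0.710, adjusted p = 0.649), and by -1.10 without replicate 3. MET was higher at 50 mM in 3 of 3 pairs in both, with 0.49 (SE 0.312) in epithelial and 1.27 (SE 0.595) in stromal cells. The epithelial value was 0.11 without replicate 2, and the stromal value 0.51 without replicate 3. Neither was called.

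Other members had the same direction in all 3 pairs of one cell type at sizes that were not called in edgeR. FGF7 was higher at 50 mM in epithelial cells by 1.48 (SE 0.878, adjusted p = 0.804), of which the pair of replicate 2 made up most, with a difference of 4.02 against 0.48 and 0.28 in the other pairs. That pair held the epithelial library at 5 mM with the highest epithelial marker sum (15578 CPM, against 8161 to 9186 CPM in the other epithelial libraries of the experiment), and without replicate 2 the value was 0.39. In the same pair the median of the 20 stromal markers was 12.3 CPM at 5 mM and 83.0 CPM at 50 mM, and the summed smooth muscle markers were 39.4 and 384 CPM. Their part in the levels of FGF7 was not tested. In stromal cells FGFR1 was lower (log2 fold change -0.36, SE 0.142, adjusted p = 0.696), and FGFR2 (0.28, SE 0.171) and EGFR (0.13, SE 0.096) were higher. For the difference of the glucose effect between the cell types, 0 of 10 members and 0% of all genes were called, with 3 members at an unadjusted p under 0.05 in edgeR, and 0 called and 4 in DESeq2.

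**Figure D4:**
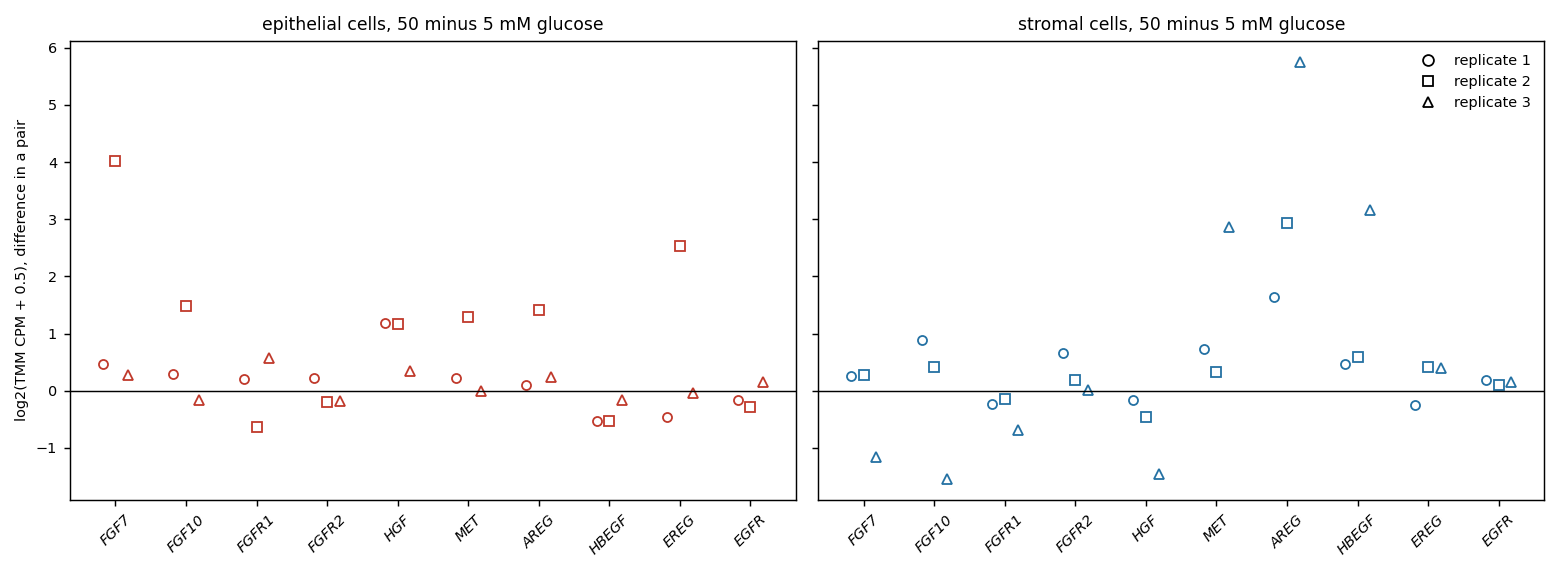
Difference between 50 and 5 mM glucose in each replicate pair on the scale log2(TMM CPM + 0.5), on the vertical axes, for each member on the horizontal axes, with epithelial cells on the left and stromal cells on the right. The largest stromal differences of AREG, HBEGF and MET are all in replicate 3, and the largest epithelial ones of FGF7 and EREG in replicate 2.

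Between the insulin groups no difference of a member was called, which with 3 replicates does not show that the levels were equal. In epithelial cells the log2 fold changes of the 8 members tested were between -0.03 and 0.30 at 1 ng/mL against vehicle, between -0.14 and 0.25 at 10 ng/mL against vehicle, and between -0.11 and 0.09 at 10 against 1 ng/mL, with FGF10 and HGF removed by the filter on low counts. In stromal cells those of the 9 members tested, all but AREG, were between -0.69 and 0.08, between -0.13 and 0.15, and between -0.20 and 0.70. In each of the 6 comparisons 0 members were called in edgeR and 0 in DESeq2. All 10 members were tested when every gene with a count was kept or all libraries of the experiment were fitted together, and 0 were called. The share of all genes called was 0.113% for 10 ng/mL against vehicle in epithelial cells (0.0727% higher and 0.0404% lower), 0.0244% for 10 against 1 ng/mL in stromal cells and 0% in the other 4. At an unadjusted p under 0.05, edgeR had 2 members in each of 3 comparisons and 0 in the other 3, and DESeq2 had 0 in all 6. The difference of the effect of 10 ng/mL insulin between the cell types was called for 0 of 10 members and 0% of all genes, with 0 members at an unadjusted p under 0.05 in both tools.

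HBEGF was among the members with an unadjusted p under 0.05 in all 3 of those comparisons. In stromal cells it had 1.39, 2.63 and 3.31 CPM at 1 ng/mL, and was lower than with vehicle (1.84, 7.06 and 3.47 CPM) in 3 of 3 pairs and lower than at 10 ng/mL (4.46, 3.51 and 3.94 CPM) in 3 of 3. The fitted log2 difference of 1 ng/mL against vehicle was -0.69 (SE 0.281, adjusted p = 0.917 in edgeR), and that of 10 against 1 ng/mL was 0.70 (SE 0.278, adjusted p of 1.00), and both share the libraries at 1 ng/mL. The values at 10 ng/mL were all above those at 1 ng/mL, while those with vehicle and 1 ng/mL overlapped. In epithelial cells HBEGF was lower at 10 ng/mL than with vehicle in 3 of 3 pairs, with a log2 fold change of -0.14 (SE 0.063, adjusted p = 0.694).

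The remaining differences with an unadjusted p under 0.05 were small. EREG was higher in epithelial cells at 10 ng/mL than with vehicle in 3 of 3 pairs (0.20, SE 0.095, adjusted p = 0.711 in edgeR). FGF7 was higher in stromal cells at 10 than at 1 ng/mL in 3 of 3 pairs (0.24, SE 0.074, adjusted p of 1.00). Stromal MET was lower at 1 ng/mL than with vehicle (-0.21, SE 0.073, adjusted p = 0.895), in 2 of 3 pairs.

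Other genes of the 3 pathways were taken from lists, and those called in the same direction in all 5 comparisons of the cell types were named. One list held proteases that activate HGF and their inhibitors (HGFAC, ST14, HPN, PLAU, PLAT, SPINT1 and SPINT2), the related ligand MST1 with its receptor MST1R, and the adaptor GAB1. Of these 10, 8 were called higher in epithelial cells with vehicle (28.2% of all genes), 7 with 1 ng/mL (29.9%) and 8 with 10 ng/mL insulin (27.3%), 6 at 5 mM (10.8%) and 3 at 50 mM glucose (6.57%), and 0 were called higher in stromal cells. PLAT and MST1R were called in none of the 5 comparisons. The median log2 fold change of this list with vehicle was 3.53, against -0.0022 over all genes. The 3 called in all 5 comparisons were SPINT2, an inhibitor of the proteases that cleave HGF (median log2 fold change 4.42, range 1.97 to 4.96), PLAU, the urokinase (4.12, 1.62 to 4.8), and HGFAC, the HGF activator (2.46, 1.22 to 2.90).

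For the EGF system, all 3 of the other ligands tested were called higher in epithelial cells in the insulin conditions and at 5 mM glucose, and 0 at 50 mM. Of the other ERBB receptors, both tested were called higher in epithelial cells in those 4 conditions and 1 at 50 mM, and ERBB2, the partner of EGFR in heterodimers, was called in all 5 (median 2.05, 0.98 to 2.26). The share of all genes called higher in epithelial cells was 28.2% with vehicle, 29.9% with 1 ng/mL and 27.3% with 10 ng/mL insulin. It was 10.8% at 5 mM and 6.57% at 50 mM glucose. Among genes for the shedding of ligands, RHBDF2, which guides the sheddase ADAM17, was higher in epithelial cells (1.78, 0.88 to 2.03) and the metalloproteinase ADAM12 in stromal cells (-4.56, -4.85 to -3.10). Of the 6 shedding genes tested, 3 were called higher in epithelial (28.2% of all genes) and 1 in stromal cells (27.8%) with vehicle.

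The other FGF ligands were divided. Of 5 tested with vehicle, 3 were called higher in epithelial (28.2% of all genes) and 2 in stromal cells (27.8%). FGF9 (median 4.51, 2.19 to 5.39) and FGF2 (-3.49, -3.98 to -2.48) were called in all 5 comparisons. Carriers of heparan sulfate bind FGFs and HBEGF. Of 7 tested with vehicle, 4 were called higher in stromal (27.8% of all genes) and 2 in epithelial cells (28.2%). SDC3 (-4.61, -4.79 to -3.00) and GPC4 (-4.28, -4.53 to -2.62) were called higher in stromal cells in all 5 comparisons. Of 5 other FGF receptors and binding partners tested with vehicle, 1 was called higher in epithelial (28.2% of all genes) and 2 in stromal cells (27.8%). In all 5 comparisons 0 were called.

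Feedback regulators and targets of these receptors showed no common direction. Of 20 tested, 7 were called higher in epithelial (28.2% of all genes) and 6 in stromal cells (27.8%) with vehicle, with a median of 0.17. Both counts were near the shares of all genes. DUSP4, a phosphatase of ERK, was higher in epithelial cells in all 5 comparisons (median 5.83, 1.80 to 6.94), as was SPRY2, an inhibitor of receptor signalling (2.45, 0.88 to 2.77), and SPRED1 was higher in stromal cells (-1.15, -1.24 to -0.78). Among other paracrine factors and receptors, 7 of 13 were called higher in stromal cells with vehicle (27.8% of all genes) and 4 in epithelial cells (28.2%). Those called in all 5 with the largest medians were the PDGF receptors PDGFRB (-4.69, -4.78 to -3.01) and PDGFRA (-4.62, -4.82 to -2.82), the ligand PDGFC (-3.25, -3.30 to -2.20) and CSF1 (-3.06, -3.20 to -1.54). None of the genes in these pathway lists was called by edgeR's quasi-likelihood test in the glucose or insulin comparisons. The paper, which used DESeq2 with its own cut-offs, names ERBB3 and VEGFA among the stromal transcripts that differed between the lower and the higher insulin dose. Both genes are in these lists, and the cause of the different calls was not tested.

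**Figure D5:**
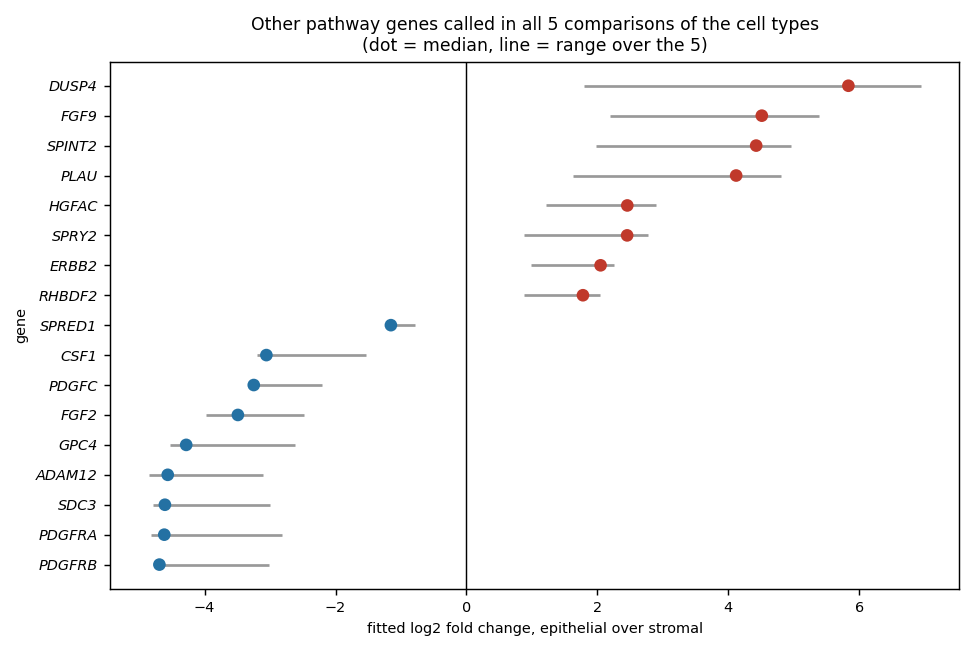
Median (dot) and range (line) of the fitted log2 fold change of epithelial over stromal cells, on the horizontal axis, over the 5 comparisons of the cell types, for the listed genes named in the text, on the vertical axis. DUSP4, FGF9, SPINT2 and PLAU have the highest medians and PDGFRB, PDGFRA, SDC3 and ADAM12 the lowest.

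The genes whose log2(CPM + 1) was most like that of a member over the 30 libraries, among 12174 genes, are given as a description, since the libraries share cell types and replicates. AREG was most like PAQR8 (Pearson's r 0.996) and the epithelial splicing factor ESRP1 (0.993), HBEGF like PLAU (0.984) and HERC6 (0.974), MET like DUSP3 (0.982) and PIK3CB (0.976), and EGFR like ADGRG1 (0.974) and NRG1 (0.973). On the stromal side, FGF10 was most like BDNF (0.986) and SLC2A10 (0.985), FGFR1 like CD276 (0.980) and the collagen gene COL1A1 (0.971), HGF like PPARGC1A (0.946) and ABCA6 (0.942), and FGF7 like SLC29A1 (0.938) and THBS2 (0.932). The members that varied most with the replicate number had the lowest values, with 0.831 between FGFR2 and C7H5orf30 and 0.829 between EREG and ANKRD28.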

How the data were processed

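RNA was sequenced from 30 libraries in 10 groups of 3 replicates. The authors made stranded libraries with the NuGEN Encore Complete system, sequenced single-end reads on an Illumina NextSeq, used Cutadapt and fastq_quality_filter for trimming, Rsubread for alignment to the Ensembl cow genome and featureCounts for counting, with reads that mapped to a single place only. The deposited values are raw read counts per gene for 27607 genes, in 1 table for each experiment, with no normalization by the authors. The strand setting of the counting is not given in the sources used here. The deposited comparison tables hold the authors' fold changes and p-values, which were not used, except for the pairing of gene IDs with symbols and gene types. Sequences, exon lengths and coordinates were not used here.

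Groups and replicate numbers came from the sample titles. The members and the lists of other pathway and marker genes were chosen with earlier results of these data known. Of 159 listed symbols, 16 had no ID, and for 3 symbols with 2 IDs the ID with more reads was used. All members were named throughout, and of each pathway list at most 4 genes called in the same direction in all 5 comparisons of the cell types, the ones with the largest medians.

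The 6 libraries of each comparison were filtered with filterByExpr (minimum count 10), normalized with TMM and tested in R 4.3.3 with the quasi-likelihood test of edgeR 4.0.16, with the replicate number as a block because the authors' methods state a paired design. Whether libraries with the same number came from the same animal was not stated. Deviations of same-numbered libraries from their group means correlated by 0.198 to 0.860 between treatments of one cell type and by 0.033 to 0.526 between the cell types. P-values were adjusted with the Benjamini-Hochberg method over all genes tested, and a gene was called at an adjusted p under 0.05 and a log2 fold change beyond 0.1. The percentages of genes called are over protein-coding genes. Differences of an effect between the cell types were tested in one fit over the libraries of an experiment. Counts of members not overlapping were set against genes that had 1 CPM or more in 3 or more libraries. Differences within pairs were taken on the scale log2(TMM CPM + 0.5). When tested on simulated data, the scripts recovered known fold changes of genes with high counts. The simulated replicates had a small fixed spread, so members with few counts or a large replicate spread were not covered. The alternatives were no replicate block, size factors of DESeq2 1.42.0, the DESeq2 test, every gene with at least 1 count, all libraries of an experiment in one fit, and each replicate left out in turn. No library was identical to another, and p-values measure only the spread between these replicates.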

Additional observations from a re-analysis of the deposited data

Results flagged for a closer look

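HBEGF differed in direction between the cell types when 10 and 1 ng/mL insulin were compared. In epithelial cells the log2 fold change was -0.11, with 0 of 3 pairs higher at 10 ng/mL, and in stromal cells it was 0.70, with 3 of 3 pairs higher. The values were 30.1, 64.4 and 45.5 CPM at 10 ng/mL against 35.2, 66.1 and 48.9 CPM at 1 ng/mL in epithelial cells, and 4.46, 3.51 and 3.94 CPM against 1.39, 2.63 and 3.31 CPM in stromal cells. Neither change was called in edgeR, and the difference between the cell types was not tested for this pair of doses. With 1 replicate left out at a time, the epithelial value was between -0.15 and -0.078 and the stromal value between 0.34 and 0.96.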

How the results depend on the processing

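Over the 5 comparisons of the cell types, 237 values of the members under the alternatives that kept all replicates, and 124 with 1 replicate left out, had the direction and call reported, against 13 and 26 that did not. The direction changed only for FGFR2, which was called once, with vehicle without replicate 3, and was 0.051 at 10 ng/mL insulin without the replicate block. With 1 replicate left out its log2 fold change was -0.27 to 0.64 with vehicle, -0.25 to 0.45 with 1 ng/mL and -0.38 to 0.52 with 10 ng/mL insulin. At 50 mM glucose, 1 member was called without the replicate block (FGF7, where 7.95% of all genes were called) and 0 without replicate 1 (0%). Without replicate 3 the count was 7 (28.4% of all genes), and in DESeq2 it was also 7 (26.0%), with AREG and HBEGF added in both. Leaving out a replicate thus gave 0 to 7, and the share of all genes called moved in the same order. The cause was not tested. The other calls lost without the block were those of EREG in the insulin experiment and of FGFR1 at 5 mM glucose (adjusted p = 0.082 in edgeR). For the treatments, leaving out a replicate gave 0 to 1 members for 1 ng/mL insulin against vehicle in stromal cells (FGF7 without replicate 3), for 10 against 1 ng/mL in stromal cells (EREG without replicate 1), and for the difference of the glucose effect (AREG without replicate 1) and of the insulin effect (AREG without replicate 2). No other alternative called a member in a treatment comparison. These calls were not set against the share of all genes called in the same fits and are given as a description only. In the glucose experiment, 3 members did not overlap between the cell types (23.6% of all genes). The count was 7 without the stromal library of replicate 3 at 50 mM (34.8%). It was 6 without the epithelial library of replicate 2 at 5 mM (29.5%). Over both experiments it was 2 (13.9%), and 5 without the stromal library named above (22.4%). Depth limits FGF10 and HGF in epithelial cells and AREG in stromal cells of the insulin experiment, which the filter on low counts removed from the insulin comparisons. With every gene of at least 1 count kept, or all libraries of an experiment in one fit, all 10 members were tested in each treatment comparison and 0 were called.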

Other observations

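The 2 experiments were not tested against each other. In stromal cells FGF7 and EGFR were the only members whose levels did not overlap between them. The share of all genes that did not overlap in this way was not counted, so these ranges are a description only. Stromal FGF7 had 98.1 to 298 CPM over the 6 glucose libraries and 14.1 to 69.5 CPM over the 9 insulin libraries. Stromal FGFR2 had 10.6 to 30.3 CPM against 30.1 to 44.9 CPM, which overlapped, and stromal EGFR had 67.5 to 131 CPM against 38.3 to 55.8 CPM. In epithelial cells HBEGF had 54.7 to 143 CPM over the glucose libraries and 30.1 to 73.5 CPM over the insulin libraries, which overlapped. The glucose concentration of the insulin experiment was that of the lower glucose group, 5 mM.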
